A study of Homo sapiens with 2 samples.

Results

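Megakaryocytes (Mk), the bone marrow and embryonic cells that make platelets, were taken here as the barcodes of 2 organoids that carried a high level of the platelet chemokine gene *PF4*. A barcode is the droplet label of the 10x Genomics protocol and stands for 1 captured cell, or for several where cells were captured together. Members were chosen by a rule on their own unique molecular identifier (UMI) counts. A member had 500 to 9000 detected genes, less than 15% of its UMIs from mitochondrial genes, a *PF4* level of at least 5000 CPM (UMIs of a gene scaled to a total of 1000000 UMIs), fewer than 10000 CPM of the embryonic globin gene *HBZ*, at least 3 UMIs of *ITGA2B*, 0 of the endothelial gene *CDH5* and at most 3 of the cardiomyocyte gene *MYH6*. The rule found 559 members among 15632 barcodes that passed the gene and mitochondrial limits in organoid 32.7 (3.58%, exact binomial 95% confidence interval 3.29 to 3.88) and 1660 of 19117 in organoid 33.10 (8.68%, 8.29 to 9.09). This made 2219 of 34749 barcodes in all. The intervals cover counting error only, and with 1 library per organoid the difference between the shares was not tested.

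Megakaryocytes arise from a progenitor shared with red cells, enlarge, copy their DNA without dividing, fill alpha and dense granules and shed platelets through microtubule-driven extensions called proplatelets. Alpha granules hold proteins such as PF4 (CXCL4), PPBP (the precursor of CXCL7), thrombospondin and P-selectin, and platelets bind von Willebrand factor through the GPIb-IX-V receptor and fibrinogen through the ITGA2B-ITGB3 integrin. GATA1, FLI1, RUNX1, NFE2 and GFI1B are transcription factors known for their part in the lineage. In the embryo the earliest megakaryocytes appear in the yolk sac together with primitive erythroid cells, which use the embryonic globin genes *HBZ* and *HBE1*.

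Both libraries came from blood-generating heart-forming organoids (BG-HFOs) at day 14, made from hES3 NKX2.5-eGFP, a human embryonic stem cell line with a fluorescent reporter of cardiac cells. The organoids had been grown with cytokines that drive endothelial and blood cell formation, among them stem cell factor, thrombopoietin, erythropoietin and interleukins, and no organoid without them was in the series. Each organoid gave 1 library, so every comparison rests on 2 organoids of 1 cell line and 1 treatment. The p-values measure only the spread between these 2 libraries. That spread was estimated over all classes of barcodes fitted together, so classes outside a comparison also entered its p-values. The libraries held 191152562 UMIs in organoid 32.7 and 233818881 in organoid 33.10, and the members' sums were 6905505 and 18681837 UMIs. Throughout, the value of organoid 32.7 stands before that of organoid 33.10, and the level of a class is given in CPM of its summed barcodes. Levels of different genes were not compared, because the counts were not set per length. Exceptions were the naming of the gene with the most UMIs of a list and a ratio of *HBE1* to *HBZ*, compared between classes.

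Members were set against barcodes of the same libraries. PF4-low barcodes met every other criterion, *ITGA2B* included, but had a *PF4* level below 1000 CPM (138 and 432 barcodes). Erythroid-type barcodes had at least 10000 CPM of *HBZ* (792 and 1708), endothelial-type barcodes at least 3 *CDH5* UMIs and 0 of *ITGA2B* (1732 and 1355), and cardiomyocyte-type barcodes at least 10 *MYH6* UMIs and 0 of *ITGA2B* and *CDH5* (952 and 1043). All these classes were also limited to less than 1000 CPM of *PF4*, the endothelial and cardiomyocyte types to less than 10000 CPM of *HBZ*, the erythroid type to 0 *CDH5* UMIs, and the erythroid and endothelial types to at most 3 *MYH6* UMIs. Members had a median of 10108 and 9204 UMIs and of 3045 and 3029 genes, PF4-low barcodes 15932 and 15552 UMIs. Doublet scoring marked 7.87% and 9.94% of the members and 15.9% and 16.0% of the PF4-low barcodes, against 13.1% and 15.8% of all barcodes that passed the gene and mitochondrial limits. The libraries shared 100 barcode sequences, which included 2 and 5 members, and no sequence was a member in both.

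Of the marker genes given for the cells, *PF4* and *ITGA2B* were part of the rule. *PPBP* and *TUBB1*, which were not, fitted the label. *PF4*, which chose the members, summed to 18720 and 17236 CPM, and per barcode ran from 5069 through a median of 17769 to 126777 CPM in organoid 32.7 and from 5008 through 15857 to 102436 in organoid 33.10. *PPBP*, which the rule did not use, stood at 13540 and 11180 CPM in members against 599 and 326 in PF4-low barcodes and 17.6 and 30.9 in cardiomyocyte-type barcodes, whose value serves as a guide to the level that free RNA gives. Because barcodes with 1000 CPM of *PF4* or any *ITGA2B* UMI were left out of that class, barcodes with much platelet RNA were removed from it, and its platelet gene levels and shares may lie below those of all cardiomyocytes. *TUBB1*, the beta-tubulin of platelets, stood at 712 and 631 CPM against 89.99 and 78.2 in PF4-low and 1.38 and 2.81 in cardiomyocyte-type barcodes. With every barcode thinned to 2000 UMIs, *PPBP* was seen in 95.7% of 538 and 95.3% of 1635 members and in 4.76% and 6.002% of cardiomyocyte-type barcodes. *GP9* was seen in 71.9% and 65.9% of members and *TUBB1* in 62.8% and 65.1%, and neither reached 1% of cardiomyocyte-type barcodes. Without thinning, *PPBP* was seen in 98.9% and 99.2% of members.

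**Figure D1:**
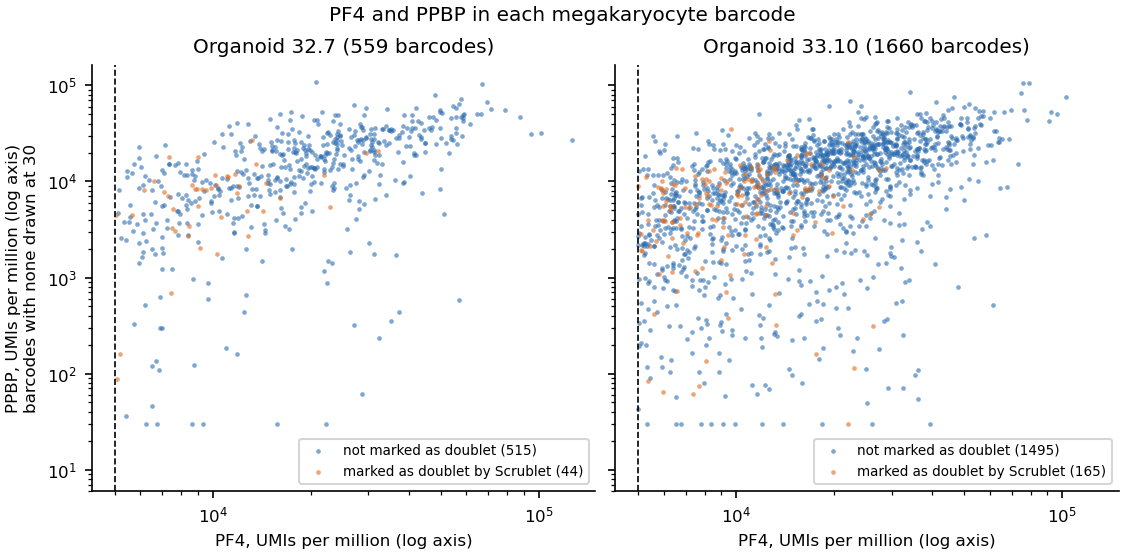
Each point is 1 member, with PF4 (horizontal) and PPBP (vertical) in CPM of that barcode on log axes, 1 panel per organoid, and members marked as doublets in colour. The dashed line is the limit of 5000 CPM that chose the members, and members without a PPBP UMI are drawn at 30. In both panels most members lie above 1000 CPM of PPBP, and 34 of organoid 32.7 and 159 of organoid 33.10 lie below.

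The *PF4* limit did not fall in a gap. Of the barcodes that met all other criteria, 138 and 432 lay below 1000, 179 and 537 between 1000 and 5000, and 559 and 1660 at or above 5000 CPM of *PF4*. Members just inside the limit, at 5000 to 6000 (25 and 103), had summed *PPBP* levels of 5381 and 3984 CPM, and barcodes just outside, at 4000 to 5000 (32 and 110), had 3372 and 2687 CPM. *TUBB1* was 432 and 346 CPM inside and 247 and 314 outside. Of the other criteria, dropping the *ITGA2B* limit would have added 228 and 669 barcodes, the *CDH5* limit 66 and 122, the *MYH6* limit 26 and 104 and the *HBZ* limit 5 and 35.

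The marker genes *PF4* and *PPBP* are neighbours. In a GENCODE release for GRCh38 later than the one used for counting, *PF4* lies on chromosome 4 from 73980811 to 73982027 and *PPBP* from 73986439 to 73988190, both on the minus strand. The same cluster holds *PF4V1* (73853296 to 73854483, plus strand), *CXCL8* (from 73740519), *CXCL3* and *CXCL2* (to 74099196), all chemokine genes. *PF4V1* is a near copy of *PF4*, so reads may be divided between them and its value is uncertain. It stood at 500 and 455 CPM in members and 12.1 and 24.7 in PF4-low barcodes. *CXCL3* stood at 246 and 207 CPM against 51.8 and 63.7, and *CXCL2* at 64.6 and 60.5 against 17.5 and 24.5.

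Sequences before the start site were read for the marker genes *PPBP* and *TUBB1* and for 2 receptor genes, *GP9*, the GPIX subunit of the von Willebrand factor receptor, and *CLEC1B*, the receptor CLEC-2. These 250-base windows come from RefSeq on GRCh38.p14 and were chosen as examples, that of *CLEC1B* after its motif matches had been seen. All 4 genes stood higher in members than in PF4-low, erythroid-type and endothelial-type barcodes in both organoids. *PF4* itself had no entry. Capitals mark AGATAA (letters bound by GATA factors), CGGAAG or AGGAAG (ETS factors such as FLI1) and TGTGGT (RUNX factors), searched on both strands. On the opposite strand these read TTATCT for the GATA letters, CTTCCG or CTTCCT for the ETS letters and ACCACA for the RUNX letters. The lines run 5′ to 3′ in the direction of the gene and end at the base before the start.
PPBP, chr4:73988191-73988440, minus strand: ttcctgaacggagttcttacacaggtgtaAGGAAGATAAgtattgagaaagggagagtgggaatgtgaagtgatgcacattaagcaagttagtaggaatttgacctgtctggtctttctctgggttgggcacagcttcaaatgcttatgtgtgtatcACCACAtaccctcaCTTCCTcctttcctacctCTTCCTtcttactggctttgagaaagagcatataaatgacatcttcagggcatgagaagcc
GP9, chr3:129060529-129060778, plus strand: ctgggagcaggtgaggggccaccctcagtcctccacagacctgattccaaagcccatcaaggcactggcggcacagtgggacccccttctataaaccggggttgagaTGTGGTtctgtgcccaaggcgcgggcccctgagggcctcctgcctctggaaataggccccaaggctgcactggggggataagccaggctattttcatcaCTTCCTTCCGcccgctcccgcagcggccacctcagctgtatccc
CLEC1B, chr12:9999122-9999371, minus strand: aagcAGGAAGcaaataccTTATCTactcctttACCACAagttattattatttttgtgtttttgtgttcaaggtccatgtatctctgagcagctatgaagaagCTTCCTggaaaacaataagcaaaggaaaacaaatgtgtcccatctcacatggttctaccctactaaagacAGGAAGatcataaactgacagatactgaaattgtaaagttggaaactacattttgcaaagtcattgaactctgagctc
TUBB1, chr20:59019179-59019428, plus strand: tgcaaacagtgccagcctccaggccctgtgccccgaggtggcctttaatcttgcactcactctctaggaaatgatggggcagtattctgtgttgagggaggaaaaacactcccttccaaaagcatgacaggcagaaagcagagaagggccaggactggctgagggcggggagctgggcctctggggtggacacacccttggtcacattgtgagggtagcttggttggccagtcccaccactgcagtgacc

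In *PPBP*, AGGAAG and AGATAA overlapped at 221 and 217 bases before the start. *GP9* held AGGAAG and CGGAAG on the other strand, overlapping, at 44 and 40 bases before the start, and TGTGGT at 143. *CLEC1B* held AGATAA on the other strand at 232, and *TUBB1* held none of these letters in its window. Short motifs like these are common. AGATAA was in 9.17% of 35116 promoters of this length, CGGAAG in 16.5%, AGGAAG in 28.7%, TGTGGT in 11.0% and TGAGTCA, the letters of NFE2 and AP-1, in 4.20%. An ETS motif of either form was in 40.8% of all promoters, in 10 of 14 alpha granule genes with an entry, in 9 of 13 adhesion receptor genes, in 13 of 21 signalling genes, in 9 of 21 cytoskeletal genes, in 3 of 7 agonist receptor genes, in 5 of 7 endothelial genes and in 5 of 11 mitosis genes. A match shows letters, not binding.

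PF4-low barcodes passed the same *ITGA2B* limit, so the comparison with them asks which genes went with *PF4* among *ITGA2B*-positive barcodes. The classes were not matched in *ITGA2B* level, which was 1078 and 997 CPM in members and 360 and 412 in PF4-low barcodes. The limit was in raw UMIs, and PF4-low barcodes were deeper. Of 20041 genes tested, 5599 (27.9%) passed an adjusted p of 0.05 in edgeR's quasi-likelihood test, 3104 (15.5%) higher and 2495 (12.4%) lower in members. The classes were divided by *PF4* in the same barcodes, so genes that vary with *PF4* were bound to differ, and a call gives the size of a difference against the spread between the 2 organoids. It is no test of whether the groups differ. The log2 fold changes use TMM scaling, which set them 0.30 above those from plain CPM here, 0.41 above against endothelial-type barcodes and 0.40 above between *PF4* tertiles. Against erythroid-type barcodes the shift was -0.14 and between cycling and non-cycling members -0.19. The median log2 fold change of all genes was 0.02.

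Genes of the alpha granule were higher in members. Of 20 tested, 16 passed as higher and 0 as lower, with a median log2 fold change of 2.52, beside 15.5% of all genes higher. *PPBP* had a log2 fold change of 5.05 (SE 0.53, n = 2 organoids, adjusted p = 3.92e-05 from edgeR's quasi-likelihood fit, Benjamini-Hochberg adjusted). *THBS1* (thrombospondin) stood at 1908 and 1751 CPM in members and 179 in PF4-low barcodes of each organoid. *SELP* (P-selectin, an adhesion protein stored in the granule membrane) stood at 294 and 262 CPM against 56.4 and 48.1. *MMRN1* (multimerin, a factor V carrier) stood at 481 and 439 against 83.2 and 121 CPM. In all 3 genes the lower member value was above the higher PF4-low value. *TGFB1* stood at 707 and 655 CPM, *F13A1* (coagulation factor XIII) at 550 and 522, and *PDGFB*, a growth factor for mesenchymal cells, at 63.7 and 59.3 against 4.29 and 4.79. The 4 genes not called were *SRGN*, *F5*, *VPS33B* and *VIPAS39*, and *F5* had 10 and 34 UMIs in members.

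*VWF*, which encodes an alpha granule protein of adult platelets and also of endothelium, was close to its level in endothelial-type barcodes. Members held 60 and 96 UMIs, or 8.69 and 5.14 CPM, and endothelial-type barcodes 4.82 and 7.004 CPM. PF4-low barcodes held 1 and 5 *VWF* UMIs in all, and cardiomyocyte-type barcodes 1 and 3. After thinning to 2000 UMIs, 1.30% and 0.856% of members held a *VWF* UMI. The log2 fold change against endothelial-type barcodes was 0.60 (SE 0.34, adjusted p = 0.163 from edgeR's quasi-likelihood fit, Benjamini-Hochberg adjusted) and did not pass.

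Adhesion receptors followed the granule genes, with 14 of 16 higher, 0 lower and a median log2 fold change of 2.85. The subunits of the von Willebrand factor receptor stood at 1893 and 1308 CPM for *GP1BB*, 881 and 767 for *GP9*, 168 and 147 for *GP1BA* and 15.6 and 16.6 for *GP5*. PF4-low barcodes held 186 and 130 CPM of *GP1BB* and 118 and 120 of *GP9*. *GP1BB* neighbours *SEPTIN5*, and cardiomyocyte-type barcodes held 44.2 and 38.3 CPM of it, so part of its reads may belong to the other gene. *ITGB3*, the partner of *ITGA2B* in the fibrinogen receptor, stood at 496 and 515 CPM against 82.1 and 100. The collagen receptor *GP6* stood at 200 and 191 CPM against 36.8 and 44.3, and *CLEC1B* at 503 and 418 against 61.8 and 35.4. *TREML1*, a receptor of the alpha granule membrane, had a log2 fold change of 4.45 (SE 0.21), from 6.07 and 7.44 CPM in PF4-low barcodes to 128 and 119. The 2 genes not called were *CD36* and the collagen integrin *ITGA2*, at 4.49 and 0.856 and at 12.0 and 7.60 CPM in members.

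All 11 genes of the agonist and inhibitory receptors tested were higher, with a median log2 fold change of 1.98. The thrombin receptors *F2R* and *F2RL3* stood at 424 and 401 and at 104 and 104 CPM. The ATP-gated channel gene *P2RX1* stood at 223 and 219 CPM against 90.7 and 98.5 in PF4-low barcodes. The ADP receptor genes stood at 81.8 and 79.9 CPM for *P2RY1* and 14.9 and 12.7 for *P2RY12*, the target of clopidogrel. The adrenaline receptor *ADRA2A* stood at 97.6 and 127 against 19.3 and 23.6 CPM, and the inhibitory receptor *MPIG6B* at 115 and 138 CPM.

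**Figure D2:**
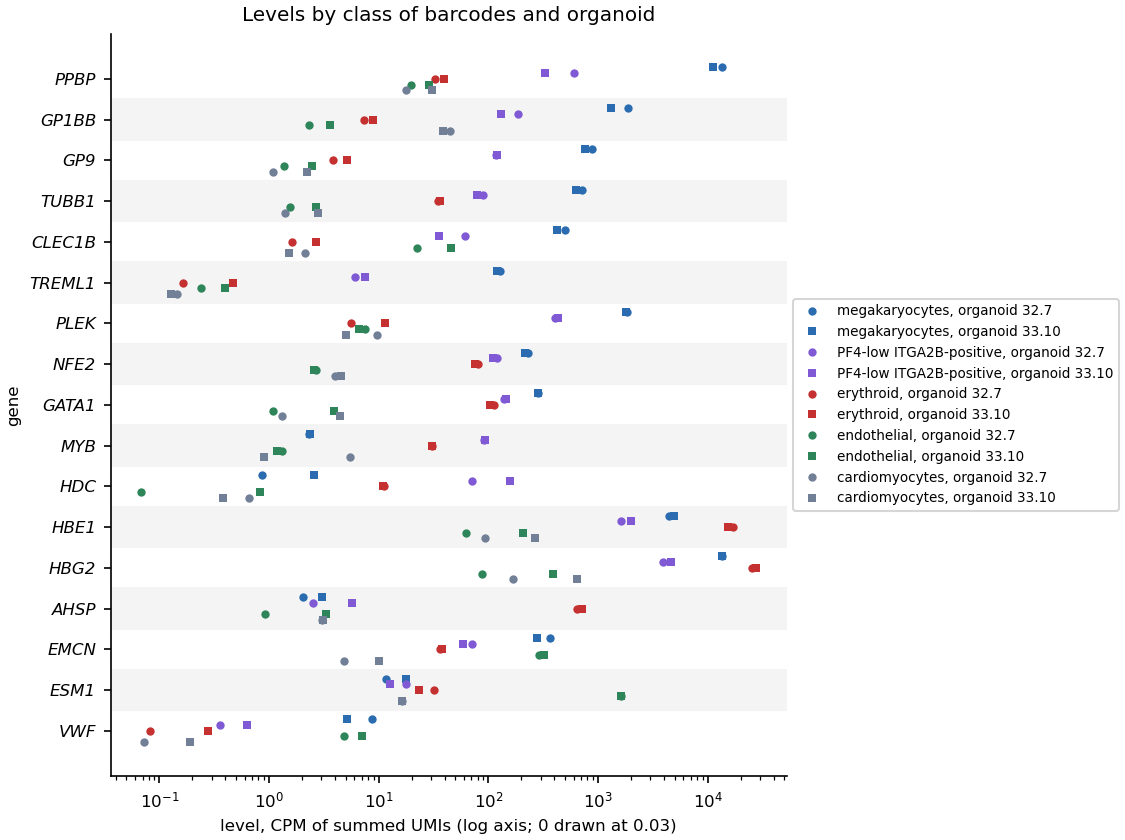
Levels of platelet, transcription factor, globin and other genes in CPM (log axis) in members and in PF4-low, erythroid-type, endothelial-type and cardiomyocyte-type barcodes, with 1 mark per organoid. Platelet genes such as PPBP and TUBB1 are highest in members in both organoids, and MYB and HDC are highest in PF4-low barcodes.

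The cytoskeletal genes of proplatelet formation moved as 1 group, with 23 of 23 higher and a median log2 fold change of 2.12. *TMSB4X* (thymosin beta 4, an actin-binding peptide) stood at 14603 and 14096 CPM against 3789 and 4168 in PF4-low barcodes. Talin (*TLN1*) stood at 1117 and 1034, non-muscle myosin (*MYH9*) at 536 and 547 and filamin A (*FLNA*) at 453 and 412 CPM. *MYLK*, the myosin light chain kinase, stood at 350 and 358 CPM against 73.2 and 81.2. *TUBB1* had a log2 fold change of 3.31 (SE 0.22).

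Of the platelet signalling genes 18 of 24 were higher and 1, the phospholipase gene *PLCG2*, was lower, at 18.5 and 16.8 CPM against 35.7 and 43.1. The median log2 fold change was 1.75. *PLEK* (pleckstrin, the main protein kinase C substrate of platelets) stood at 1855 and 1791 CPM against 402 and 428, and *RAP1B*, the small GTPase that acts on integrins, at 3182 and 2801 against 606 and 592. Eicosanoid genes did not move one way, with 3 of 7 higher and 2 lower. Thromboxane synthase (*TBXAS1*) stood at 666 and 614 CPM against 213 and 247, and *ALOX5*, the leukotriene enzyme of myeloid cells, was lower at 2.46 and 0.749 against 17.1 and 22.3. Dense granule genes were also mixed, with 6 of 12 higher, 2 lower (*HPS3* and *HPS5*) and a median of 0.32. *RAB27B*, a granule GTPase, stood at 794 and 798 CPM against 196 and 235, whereas *SLC18A2*, the monoamine transporter that loads the granule, stood at 13.5 and 13.9 against 19.3 and 27.9 and was not called.

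Transcription factor genes went both ways, 11 of 22 higher and 7 lower, with a median log2 fold change of 0.17. *GATA1* stood at 283 and 281 CPM against 140 and 146, *NFE2* at 232 and 218 against 120 and 109, *GFI1B* at 186 and 178 against 61.8 and 53.0 and *FLI1* at 459 and 531 against 268 and 331. *RUNX1* stood at 479 and 509 CPM against 572 and 741 and was not called (log2 fold change -0.11). The 7 lower genes are known for progenitors and for other blood lineages. *MYB*, needed for definitive progenitors, stood at 2.32 and 2.36 CPM against 90.4 and 92.2 in PF4-low barcodes, a log2 fold change of -4.99 (SE 0.51). *GATA2* stood at 18.4 and 20.3 against 83.9 and 72.9 CPM, the myeloid factor *SPI1* at 23.5 and 17.6 against 106 and 83.4, and *ERG* at 2.90 and 2.25 against 28.6 and 36.8. *BCL11A*, *IKZF1* and *CEBPA* were the others.

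Some genes were lower in members and higher in PF4-low barcodes. *HDC*, histidine decarboxylase of basophils, mast cells and eosinophils, stood at 71.1 and 157 CPM there and 0.869 and 2.57 in members, a log2 fold change of -5.57 (SE 0.52). The integrin gene *ITGA4* stood at 108 and 96.1 against 8.98 and 1.55 CPM, the orphan receptor gene *GPR85* at 77.1 and 75.7 against 3.62 and 2.25, and *IKZF2* at 91.1 and 59.4 against 7.53 and 4.98. The potassium channel gene *KCNQ5* stood at 224 and 213 in PF4-low barcodes, 19.5 and 15.2 in members and 797 and 922 in cardiomyocyte-type barcodes. Of the gene lists, 4 of 8 eosinophil, basophil and mast cell genes were lower in members and 0 higher, beside 12.4% of all genes lower. Of 13 macrophage genes 3 were lower and 1 higher, of 6 lymphoid genes 2 and 1, and 0 of 5 neutrophil genes were called. PF4-low barcodes are named here by their rule. Their doublet share and depth were above those of members, as given above. With marked barcodes removed from every class, the same counts came out for alpha granule genes (16 of 20), adhesion receptors (14 of 16), agonist receptors (11 of 11) and cytoskeletal genes (23 of 23). After thinning to 2000 UMIs these were 16 of 19, 13 of 16 with 1 lower, 11 of 11 and 23 of 23.

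Among the receptors for the cytokines of the medium, 7 of 17 were higher in members and 2 lower. The erythropoietin receptor *EPOR* stood at 39.5 and 36.2 CPM, *IL6ST* (gp130, shared by the IL-6 and IL-11 receptors) at 309 and 352, and *CSF2RB*, the common chain of the IL-3 receptor, at 17.5 and 15.7. Of 13 genes that act after these receptors 4 were higher, *JAK2*, *STAT3*, *SH2B3* and *BCL2L1*, and 1 was lower.

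Growth factor and chemokine genes that members expressed included 11 of 19 higher than in PF4-low barcodes and 2 lower (*IL1B* and *S1PR1*), with a median of 1.26. *EGF* stood at 113 and 115 CPM against 17.9 and 24.9, and *FGF2* at 67.6 and 61.6 against 6.43 and 8.20. *CCL5* (RANTES) differed between the organoids, at 578 and 251 CPM against 83.2 and 51.0. Other genes at the top were *HPSE* (heparanase, which cuts heparan sulfate), at 322 and 238 against 10.4 and 12.2 CPM with a log2 fold change of 4.91 (SE 0.25), *PTCRA*, the pre-T cell receptor alpha chain, at 90.9 and 82.4 against 7.86 and 5.17, *NRGN* (neurogranin, a calmodulin-binding protein) at 848 and 640 against 74.6 and 66.0, and *MPP7*, *C19orf33*, *DGKG* and *TSPAN33*. *PLPP1*, *HPSE2*, *PYCARD* and *COL23A1* were the remaining genes that fell most. Of the antigen presentation genes 5 of 15 were higher, *B2M* and *CD40* among them, and 3 lower, *CIITA*, *TLR4* and *CD14*, with a median log2 fold change of -0.56, and the class II chain *CD74* stood at 6.37 and 1.98 CPM.

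Summed over all members, 9 of 14 S phase genes and 7 of 15 mitosis genes were lower than in PF4-low barcodes. In both lists 0 were higher and the median was -0.70. *MKI67* stood at 68.2 and 57.4 against 87.9 and 115 CPM and was not called. Members just inside the *PF4* limit, at 5000 to 6000 CPM, did not stand lower in it, at 212 and 115 CPM. Their *CDK1* was 153 and 119 CPM, against 76.1 and 98.5 in PF4-low barcodes. Of the genes for cytokinesis and endomitosis 2 of 15 were higher (*RHOA* and *CCND3*) and 2 lower, so the list stayed near the 27.9% of all genes that were called. One of 10 embryonic and fetal genes, *LIN28A*, was higher and 3 were lower.

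Erythroid-type barcodes stand for the other branch of the shared progenitor. The comparison used the same member sums, and 9508 of 20041 genes (47.4%) passed, 5233 (26.1%) higher and 4275 (21.3%) lower in members. Because *HBZ* chose the erythroid-type barcodes and was capped in members, and *PF4* chose the members, genes that vary with either were bound to differ, and the counts describe what went with the rules. All 24 signalling genes were higher, with a median log2 fold change of 3.34, as were 18 of 20 alpha granule genes (4.57), all 11 agonist receptors (4.92) and all 23 cytoskeletal genes (3.71). *PLEK* stood at 5.53 and 11.4 CPM in erythroid-type barcodes, next to 9.68 and 5.04 in cardiomyocyte-type barcodes. Its log2 fold change of 7.57 (SE 0.37) thus rests on a level near that in cells that should lack the gene, and it was 17.8 after subtraction of free RNA. *PPBP* stood at 32.5 and 39.2 CPM there, next to the 17.6 and 30.9 CPM of cardiomyocyte-type barcodes. *COL24A1*, a collagen gene that members expressed, stood at 901 and 821 CPM in members and 2.28 and 6.02 in erythroid-type barcodes. *GATA1*, which both lineages use, stood at 112 and 103 CPM in erythroid-type barcodes, a log2 fold change of 1.24 (SE 0.35) that DESeq2 did not call.

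Of 19 erythroid genes 14 were lower in members and 0 higher, with a median of -3.25, as the choice by *HBZ* made likely for genes expressed with it. *AHSP*, the alpha globin chaperone, had a log2 fold change of -8.12 (SE 0.43), from 2.03 and 3.05 CPM in members, which is not above the 3.06 and 3.13 CPM of cardiomyocyte-type barcodes, and it was -16.5 after subtraction of free RNA. *SLC4A1*, the band 3 anion exchanger, was at 0 and 1.28 CPM in members. Other genes that fell strongly were *C17orf99*, *PKLR*, *MT1G*, *FAM83A*, *ADAMTS19*, *SLC25A21* and *MT1X*. Mitosis genes were lower in members in 13 of 15 cases and higher in 1 (*UBE2C*), and S phase genes were lower in 11 of 14 and higher in 0.

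Against endothelial-type barcodes 11002 genes (54.9%) passed, 5506 (27.5%) higher and 5496 (27.4%) lower, again with the same member sums. Members had 0 *CDH5* UMIs by rule and endothelial-type barcodes at least 3, so genes expressed with *CDH5* were bound to be lower in members, and those that vary with *PF4* to be higher. The log2 fold change was 9.53 (SE 0.34) for *GP1BB*, 9.20 (SE 0.33) for *GP9* and 8.75 (SE 0.29) for *TUBB1*, the last from 1.54 and 2.69 CPM in endothelial-type barcodes next to 1.38 and 2.81 in cardiomyocyte-type barcodes. These sizes rest on endothelial-type levels of a few CPM, and after subtraction of free RNA they were 17.6, 16.6 and 16.3.

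All 11 agonist receptors were higher than in endothelial-type barcodes, as were 22 of 23 cytoskeletal genes (*CDC42EP3* was lower), 22 of 24 signalling genes with 1 lower, and 14 of 20 alpha granule genes with *SPARC*, a matrix-binding protein, lower. Of 16 adhesion receptors 11 were higher and 4 lower, the collagen receptor chains *ITGA2* and *ITGB1*, the scavenger receptor *CD36* and the junction protein *ESAM*. *ITGA2* stood at 12.0 and 7.60 CPM in members against 237 and 222, and *ITGB1* at 394 and 424 against 1109 and 1092. All 15 mitosis genes were higher in members, with a median log2 fold change of 1.80, and of 14 S phase genes 10 were higher and 1 lower.

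Of 13 endothelial genes 12 were lower and 0 higher, with a median of -4.64, a direction that the *CDH5* limits made likely. *ESM1* (endocan) stood at 11.7 and 17.6 CPM in members against 1628 and 1625, and *ROBO4* at 1.01 and 0.910 against 90.6 and 77.6. *KDR*, a VEGF receptor, stood at 63.4 and 89.5 CPM in members against 948 and 977. *EMCN* (endomucin) was the exception, at 365 and 281 CPM in members, 292 and 325 in endothelial-type and 71.4 and 58.3 in PF4-low barcodes, and its log2 fold change of 0.48 was not called, though it passed in 3 of 10 alternatives, with marked doublets removed, at a *PF4* limit of 10000 CPM and with no filter on low counts. The other genes that fell most were *PRND*, *ADAMTS5*, *RFX8*, *ADGRF5*, *ADGRL4*, *GIMAP8*, *NOX4* and *EMP1*, and *LY6G6F*, *CMTM5* and *TMEM40* were among those that rose most.

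Members carried globin transcripts, some of them at levels above those of PF4-low barcodes. *HBE1*, the epsilon chain on chromosome 11, stood at 4488 and 4898 CPM in members, 1612 and 1994 in PF4-low, 16878 and 15224 in erythroid-type and 92.9 and 266 in cardiomyocyte-type barcodes. Its log2 fold change was 1.68 against PF4-low barcodes (SE 0.48, adjusted p = 0.0223 from edgeR's quasi-likelihood fit, Benjamini-Hochberg adjusted). Against erythroid-type barcodes it was -1.92 (SE 0.49), which is given with no test, since those barcodes were chosen by the other embryonic globin. *HBZ*, the zeta chain on chromosome 16, stood at 139 and 303 CPM in members, next to 145 and 254 in cardiomyocyte-type and 48924 and 45040 in erythroid-type barcodes. The rule capped *HBZ* at 10000 CPM in members and erythroid-type barcodes were chosen by *HBZ*, so this difference was fixed by the rules. PF4-low barcodes had the same cap as members. The ratio of *HBE1* to *HBZ* was 3.39 and 3.68 in PF4-low barcodes and 32.3 and 16.2 in members. *HBZ* itself stood higher in PF4-low barcodes than in members, opposite to *HBE1*, and was not tested. The median *HBZ* level per member was 0 and 95.4 CPM.

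The gamma globin genes *HBG1* and *HBG2* are near-identical copies, so their reads are best summed, to 18590 and 18896 CPM in members. *HBG2* alone stood at 13431 and 13557 CPM in members, 3944 and 4669 in PF4-low, 25501 and 27621 in erythroid-type and 169 and 646 in cardiomyocyte-type barcodes. Its log2 fold change against PF4-low barcodes was 1.95 (SE 0.70, adjusted p = 0.0563 from edgeR's quasi-likelihood fit, Benjamini-Hochberg adjusted) and did not pass, whereas with the organoid as a block it was 2.01 (adjusted p = 0.00703). The fit without the block took its spread from all classes, among them endothelial-type barcodes, at 88.1 and 389 CPM of *HBG2*. *HBE1* and *HBG2* overlap in GENCODE, so reads in the shared span are uncertain. *HBA1* and *HBA2*, the adult-type alpha genes, summed to 2624 and 2695 CPM. *RHAG*, the Rh-associated glycoprotein, stood at 382 and 307 CPM in members, 160 and 184 in PF4-low barcodes and 222 and 200 in erythroid-type barcodes. Of the 19 erythroid genes tested against PF4-low barcodes 6 were higher, *HBE1*, *HBG1*, *HBA1*, *HEMGN*, *CA1* and *RHAG* (the last not by DESeq2), and 3 lower, *GYPB* and *TFRC* among them.

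Members differed widely from each other in *HBE1*. In organoid 32.7, 143 members (25.6%) held less than 100 CPM of *HBE1* and 116 (20.8%) at least 10000, and in organoid 33.10 these were 285 (17.2%) and 317 (19.1%). The median was 1837 and 2505 CPM. At a limit of 1000 CPM, chosen after the values were seen, 323 members (57.8%) and 1027 (61.9%) lay at or above. These members held more *HBA1* (3125 and 3122 CPM against 1219 and 1064) and more *HBA2* (560 and 652 against 147 and 80.3) than the rest. *HBG2* went the other way, at 13073 and 13151 against 13855 and 14140 CPM, and *HBZ* stood at 185 and 401 against 83.8 and 162. *PPBP* was 14826 and 12099 against 12016 and 9863 CPM. Median depth was 9053 and 8837 UMIs above the limit and 11158 and 9875 below it, and the doublet share was 8.98% and 10.8% against 6.36% and 8.53%. At this limit *HBE1* thus varied together with the alpha globin genes and not with *HBG2*, as a description with no test. In other divisions of the members *HBE1* and *HBG2* moved the same way. Both were called higher in the highest *PF4* tertile and lower in cycling members, in the comparisons described below.

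**Figure D3:**
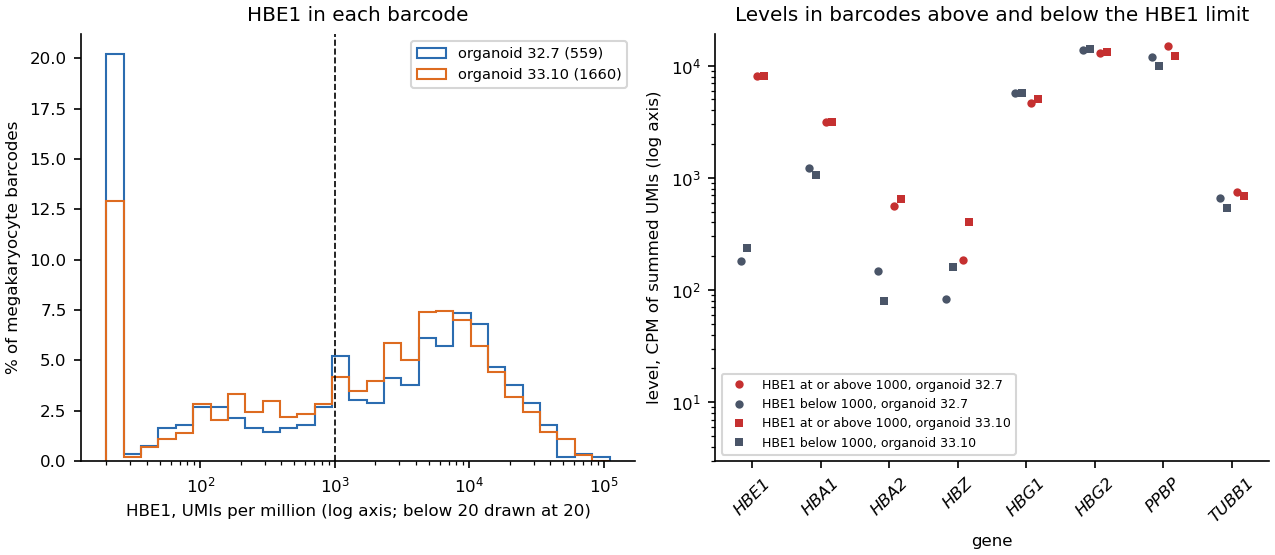
Left, percent of members by HBE1 level in CPM of the barcode (log axis, below 20 drawn at 20) in each organoid, with the limit of 1000 as a line. Right, levels in CPM (log axis) of globin and platelet genes in members at or above and below that limit, where HBA1 and HBA2 separate and HBG1 and HBG2 do not.

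The level of *PF4* among members was then used to order them, as 3 equal groups (tertiles) within each organoid (187, 186 and 186 members, and 554, 553 and 553). Median *PF4* was 8338 and 7853 CPM in the lowest tertile, 17776 and 15859 in the middle and 34100 and 30824 in the highest. The tertiles also differed in depth, with medians of 12500 and 10560 UMIs in the lowest and 8301 and 7871 in the highest, and in doublet share, 17.6% and 19.3% against 1.08% and 1.99%. Between highest and lowest tertile 3165 of 13839 genes (22.9%) passed, 1565 (11.3%) higher and 1600 (11.6%) lower. The division was by *PF4* itself, so these counts describe what went with *PF4*.

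Platelet genes rose with *PF4*. Higher in the highest tertile were 15 of 19 alpha granule genes (median log2 fold change 1.18), 12 of 16 adhesion receptors (1.11), all 11 agonist receptors (1.00), 19 of 23 cytoskeletal genes (0.98) and 18 of 24 signalling genes (0.82), with 0 lower in each, against a median of -0.04 over all genes. *PPBP* stood at 24222 and 19523 CPM against 6415 and 5697 in the lowest tertile, *TUBB1* at 1049 and 881 against 474 and 418, and *CLEC1B* at 786 and 637 against 248 and 230. The next genes by log2 fold change were *PF4V1* (2.14), *PTCRA* (2.14), *NRGN* (1.99) and *HBA2* (1.91), with *C19orf33*, *GPR183* and *CTTN*. *HBE1* stood at 6950 and 7245 against 3290 and 3219 CPM, a log2 fold change of 1.52 (SE 0.15), and *HBE1*, *HBG1*, *HBG2*, *HBA1*, *HBA2*, *RHAG* and *ANK1* were the 7 of 18 erythroid genes called higher. Transcription factor genes were higher in 8 of 21 cases, *GATA1* and *NFE2* among them, and lower for *MYB* and *BCL11A*. *RUNX1* stood at 313 and 403 CPM in the highest and 515 and 605 in the lowest tertile and was not called.

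Mitosis and S phase genes fell with *PF4*. Of the mitosis list 14 of 15 genes were lower in the highest tertile (median -2.17) and of the S phase list 11 of 14 (median -1.36), with 0 higher. *MKI67* stood at 6.77 and 13.4 CPM in the highest and 127 and 94.3 in the lowest tertile. *TFRC*, the transferrin receptor of dividing and erythroid cells, stood at 12.97 and 10.4 against 34.4 and 32.9 CPM. Genes of mesenchyme fell as well, 9 of 10 with a median of -3.09. *COL1A1* stood at 9.02 and 8.43 against 166 and 145 CPM, and *TAC1*, a neuropeptide gene, at 5.64 and 4.41 against 476 and 178. Barcodes marked as doublets held 65.1% and 88.1% of the members' *COL1A1* UMIs and 89.1% and 70.0% of those of *TAC1*, but 6.47% and 9.27% of those of *PPBP* and 11.0% and 10.5% of those of *HBE1*. Without the marked barcodes 1 of 7 mesenchyme genes was called lower, and the counts were 14 of 15 for mitosis, 13 of 14 for S phase, 15 of 19 for alpha granule and 19 of 23 for cytoskeletal genes. The other genes that fell most were *KCNIP4*, *UNC5C*, *FN1*, *GPC3*, *COL3A1*, *RGS5*, *HAPLN1* and *LSAMP*.

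**Figure D4:**
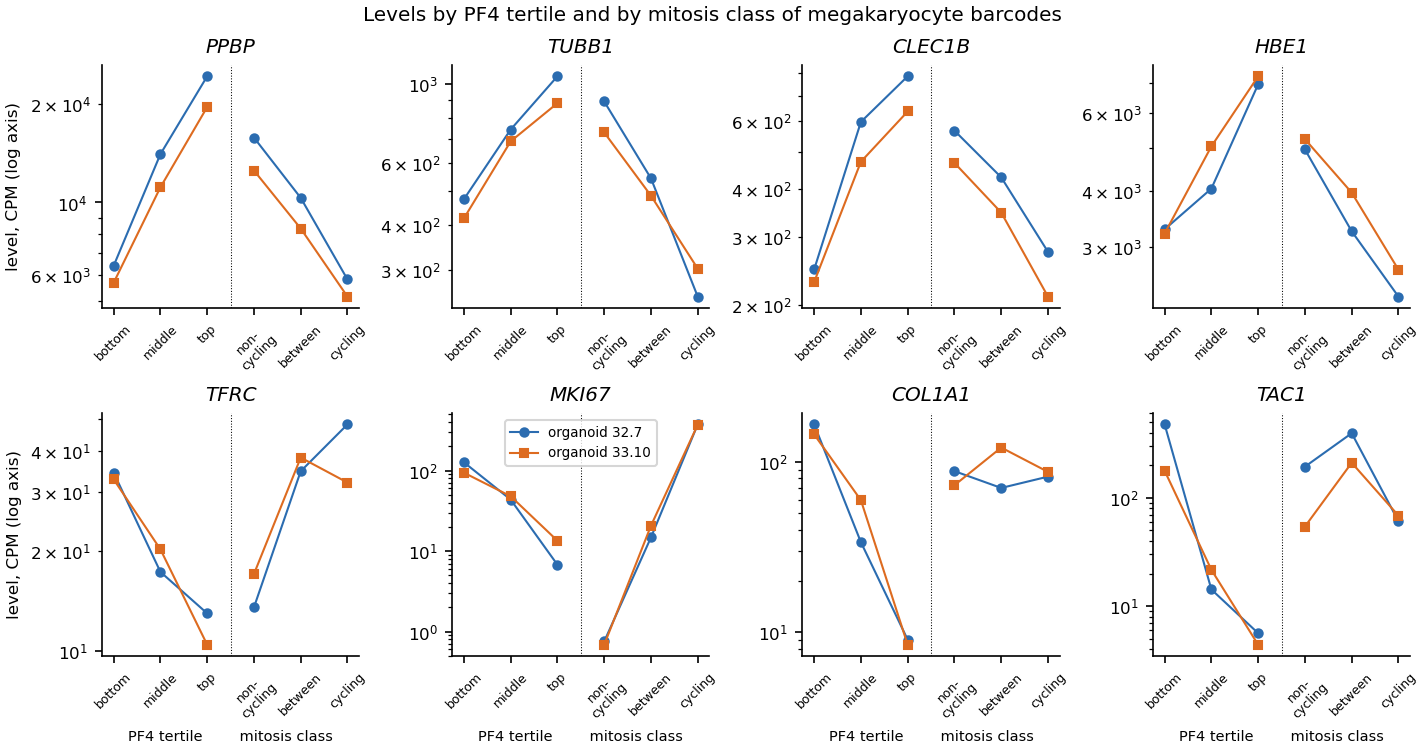
Levels in CPM (log axis) of 8 genes in the lowest, middle and highest PF4 tertile of members, and in cycling, in-between and non-cycling members, 1 line per organoid. PPBP, TUBB1, CLEC1B and HBE1 rise from the lowest to the highest tertile and stand lower in cycling members, and MKI67, COL1A1 and TAC1 fall from the lowest to the highest tertile.

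Transcripts of mitosis genes, which dividing and endomitotic cells share, were also used to divide the members. Of members with at least 5000 UMIs, 67 of 445 (15.1%, 95% interval 11.9 to 18.7) and 145 of 1318 (11.0%, 9.36 to 12.8) held at least 1000 CPM of a mitosis list of 15 genes and are called cycling here as a label, and 304 and 956 held fewer than 200. The doublet share was 14.9% and 24.8% in cycling and 6.91% and 8.16% in non-cycling members. Median depth also differed, at 14436 and 16163 UMIs in cycling and 11182.5 and 10435.5 in non-cycling members. In this comparison 3003 of 13104 genes (22.9%) passed, 1520 (11.6%) higher and 1483 (11.3%) lower in cycling members. The mitosis list divided the members and was not tested. All 14 S phase genes were higher (median 3.22), for example *PCNA*, the polymerase clamp, at 184 and 200 against 25.8 and 26.6 CPM. The genes that rose most, such as *KIF18B*, *GTSE1*, *PBK*, *KIF2C*, *KIF4A*, *KIF14*, *KIF23*, *DLGAP5*, *DEPDC1* and *HIST1H1B*, are known for mitosis or chromatin and were tied to the division.

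Cycling members had lower levels of many platelet genes. Lower were 14 of 19 alpha granule genes (median -0.94), 8 of 11 agonist receptors (-0.99), 14 of 23 cytoskeletal genes (-0.64), 12 of 24 signalling genes (-0.48) and 8 of 16 adhesion receptors (-0.53), with 0 higher in each, beside 11.3% of all genes lower. *PPBP* stood at 5830 and 5169 CPM in cycling and 15761 and 12512 in non-cycling members, and *TUBB1* at 252 and 302 against 891 and 729. *F13A1* stood at 212 and 201 against 663 and 622 CPM. Among the genes that fell most were *ABLIM3*, an actin-binding protein (log2 fold change -3.75, SE 0.40), and *CCL5*, from 804 and 294 to 71.7 and 49.1 CPM, with *TFPI2*, *MINDY1*, *SAT1*, *HIST1H2AC*, *SLC40A1*, *GPR183* and *C12orf76* after them. Other platelet genes held similar levels in both sets, *GP1BB* at 1816 and 1216 against 1865 and 1332 CPM and *PLEK* at 1738 and 1673 against 1890.5 and 1877.

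The transcription factor list was mixed in cycling members, with *MYB* higher and 7 of 21 lower. *NFE2* fell by 1.04 on the log2 scale, *GATA1* stood at 265 and 261 against 290 and 294 CPM, and *RUNX1* at 706 and 747 against 371 and 487. Neither *GATA1* nor *RUNX1* was called. *HEMGN* (hemogen) stood at 165 and 139 against 49.1 and 59.3 CPM, a log2 fold change of 1.28 (SE 0.19). *HBE1* stood at 2325 and 2672 CPM in cycling against 4967 and 5238 in non-cycling members, and *PF4*, given with no test because it chose the members, at 11490 and 10810 against 20199 and 18658. With marked doublets removed the counts were 14 of 19 alpha granule genes and 8 of 11 agonist receptors lower, and all 14 S phase genes higher.

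**Figure D5:**
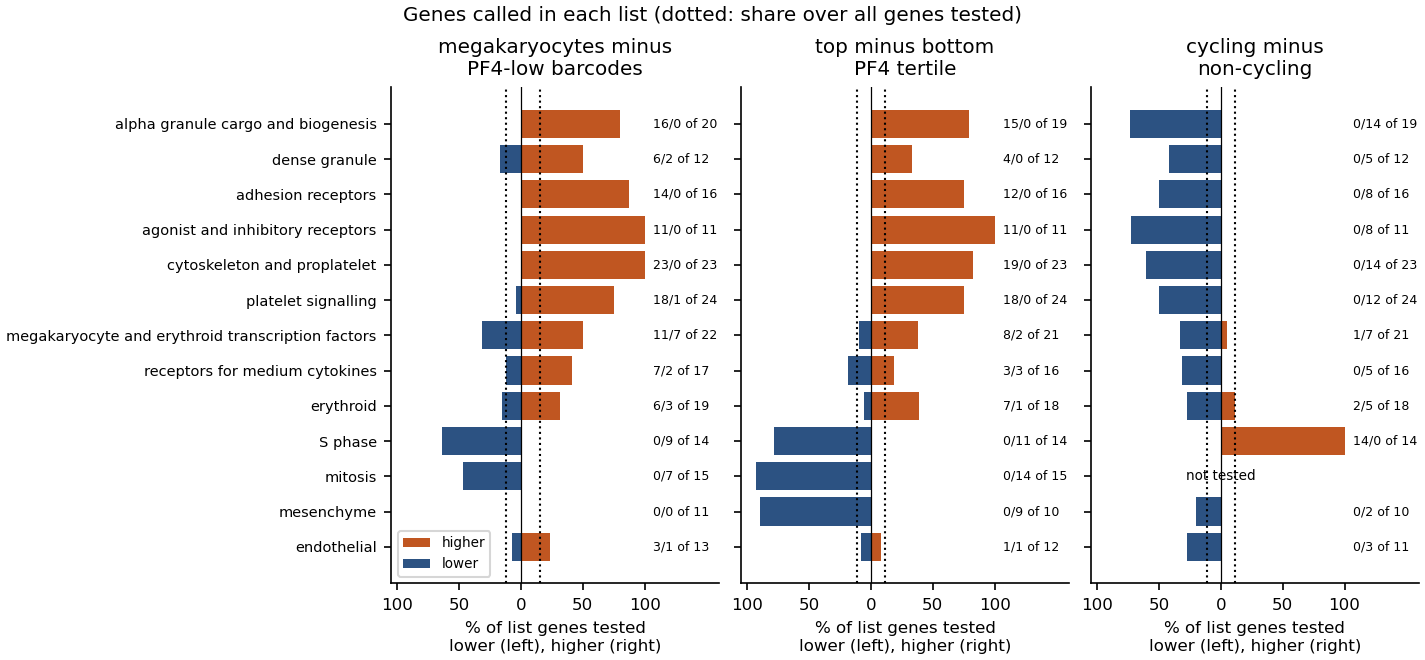
Percent of the tested genes of each list that were called higher (right) or lower (left) in 3 comparisons, members against PF4-low barcodes, the highest against the lowest PF4 tertile, and cycling against non-cycling members. Dotted lines give the percent of all tested genes called in that direction, and the alpha granule, adhesion and cytoskeletal lists lie beyond the right line in the first and second comparison and beyond the left line in the last.

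A small set of members had little *PPBP*. At a limit of 1000 CPM, chosen after the values were seen, 34 members (6.08%) of organoid 32.7 and 159 (9.58%) of organoid 33.10 lay below it, with *PPBP* at 280 and 367 CPM against 14999 and 12568 in the rest. *PF4*, which could not fall below the limit that chose the members, stood at 12804 and 13382 against 19371 and 17731 CPM, with medians per barcode of 8729 and 9738 against 18352 and 16359. *CCL5* stood at 65.7 and 12.2 against 634 and 281 CPM, *CLEC1B* at 121 and 168 against 545 and 450 and *TUBB1* at 327 and 353 against 754 and 667. *SELP* was 263 and 224 against 298 and 267 CPM, and *GATA1* 280 and 258 against 283 and 284. *MKI67* stood at 153 and 103 against 58.8 and 51.6 CPM. Of the erythroid list, *GYPB* was higher in this set, at 199 and 186 against 48.5 and 89.2 CPM. *HBG2* was lower, at 6040 and 9443 against 14244 and 14085 CPM, and so was *HBE1*, at 3738 and 3337 against 4570 and 5099. The set was divided by *PPBP*, so genes that vary with it were bound to differ, and the values are a description with no test. Their median depth was 19943.5 and 12275 UMIs against 9642 and 9007, and the doublet share was 8.82% and 9.43% against 7.81% and 9.99%.

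Marker lists of other cell types summed in members to less than in barcodes of their own type, where such a class was defined. Each such class was chosen by a gene of its list. The erythroid list summed to 26725 and 27679.5 CPM in members, 9557 and 11220.5 in PF4-low and 117079 and 116273 in erythroid-type barcodes. The cardiomyocyte list summed to 1270 and 1342 CPM, with the most UMIs from *MYL4*, and to 38437 and 34549 CPM in cardiomyocyte-type barcodes. *MYL4*, the atrial and embryonic light chain, stood at 917 and 964 CPM in members, 364 and 446 in PF4-low, 640 and 649 in erythroid-type and 39.1 and 58.4 in endothelial-type barcodes, and was the 1 gene of 12 on the list that was higher in members than in PF4-low barcodes. The macrophage list summed to 1048 and 898 CPM, with the most UMIs from *AIF1* (554 and 500). It summed to 10481 and 8850 in macrophage-type barcodes, chosen by at least 3 *C1QA* UMIs. The endothelial list summed to 992 and 921 CPM, with the most from *EMCN* in organoid 32.7 (365) and from *EGFL7* in organoid 33.10 (285). It summed to 6659 and 5998 in endothelial-type and 254 and 267 in cardiomyocyte-type barcodes. The eosinophil, basophil and mast cell list summed to 719 and 14.3 CPM in members. Mesenchyme genes summed to 304 and 297 CPM, with the most UMIs from *COL3A1*, and lymphoid genes to 31.9 and 34.7. Against PF4-low barcodes, where 15.5% of all genes were higher and 12.4% lower, 1 of 13 macrophage genes was higher and 3 were lower, and of 13 endothelial genes 3 were higher and 1 was lower. Of 12 progenitor genes 2 were higher and 4 lower, of 6 lymphoid genes 1 and 2, and of 8 eosinophil, basophil and mast cell genes 0 and 4. Of 11 stress genes 3 were higher and 0 lower, and 0 of 5 neutrophil and 0 of 11 mesenchyme genes were called. Of 6 foregut genes 4 were higher, but 5 members of organoid 33.10 held 84.7% of its *APOA2* and 98.8% of its *FGB* UMIs. Their part in the comparisons above was not tested beyond the values without marked doublets.

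Of 8542 genes with at least 10 CPM in members of both organoids, 97.2% lay within 1.5-fold and 99.6% within 2-fold of each other. This limit leaves out genes that were low in one organoid, among them *PRG2* at 449 and 7.39 CPM, *CLC* at 189 and 1.61 and *MPO* at 54.4 and 0.535.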

How the data were processed

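The authors deposited UMI counts for each gene and barcode, made with Cell Ranger 7.0.0 (version from the matrix headers) against GRCh38 with intronic reads included, before depth equalization and removal of ambient RNA. The matrices held 36601 features and 16866 and 19948 barcodes. Counts were summed per class and organoid with Python 3.11.15 and scipy 1.17.1. The 12 sums of 6 classes (members, PF4-low, erythroid, endothelial, macrophage and cardiomyocyte barcodes, the macrophages by at least 3 *C1QA* UMIs) went into one edgeR 4.0.16 fit (R 4.3.3, TMM, filterByExpr), and the *PF4* tertiles and cycling classes into one each. The genes of the rules and mitochondrial genes got no test.

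Sums of one organoid share their cells' source, so organoids pair the classes, and the organoid as a block was an alternative. Scrublet scores from scanpy 1.11.5 marked the top 0.8% of barcodes per 1000 captured, which were removed only in an alternative. DESeq2 1.42.0, RLE factors, no filter on low counts, *PF4* limits of 2500 and 10000, a stricter filter (at least 1000 genes, less than 10% mitochondrial UMIs), subtraction of 10% free RNA and thinning to 2000 UMIs were the others.

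The members and gene lists were chosen with earlier results of these data known. Named genes were list genes and, per comparison, the 10 with the largest log2 fold change each way among genes with an adjusted p under 0.05, at least 50 CPM in the higher class and the same direction in both organoids, without rule, mitochondrial, ribosomal and clone-named genes. The script was checked on simulated counts. The study's own per-cell test was not used, because it counts cells as replicates. A few genes are not reported here.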

Additional observations from a re-analysis of the deposited data

How the results depend on the processing

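Thinning every barcode to 2000 UMIs moved the number of genes called most, to 2039 against PF4-low, 5612 against erythroid-type and 6917 against endothelial-type barcodes, 792 between *PF4* tertiles and 1334 between cycling and non-cycling members, since it leaves fewer genes and UMIs to test. Between *PF4* tertiles, DESeq2 called 2019 genes, a *PF4* limit of 10000 CPM left 1324 and removal of marked doublets 1957, with 59.2%, 56.7% and 56.4% of them higher beside 49.4%, and the cause was not tested. With the organoid as a block, which uses the pairing of classes within an organoid, 6761, 10447, 12000, 4621 and 3832 genes passed in the 5 comparisons in that order, and *HBG2* against PF4-low barcodes was the 1 named gene whose call changed, its adjusted p running from 0.00236 (thinned) to 0.206 over the alternatives that kept the filter on low counts. The share of barcodes taken as members moved with the limits, to 4.20% and 10.3% at a *PF4* limit of 2500, 2.71% and 6.39% at 10000 and 4.41% and 11.0% at 1 *ITGA2B* UMI, and to 9.28% in organoid 33.10 without marked doublets. The share of cycling members was 19.6% and 15.5% at a mitosis list limit of 500 CPM. Of 61 named gene results, each under 10 alternatives with a test, 599 values kept direction and call, 9 gained the call and 2 lost it. The gains were 5 of *HBG2* against PF4-low barcodes, 3 of *EMCN* against endothelial-type and 1 of *HBG2* against erythroid-type barcodes. The losses were *RHAG* against PF4-low barcodes (adjusted p of 0.150) and *GATA1* against erythroid-type barcodes (0.157), both by DESeq2. With no filter on low counts, edgeR gave implausibly small adjusted p-values for a few genes. Those p-values are not printed, and calls gained under that alternative are uncertain. With 1 organoid left out no test was possible, because 1 sum per class has no spread, and the log2 changes turned sign for *RUNX1* against PF4-low barcodes (-0.28 without organoid 32.7, 0.089 without organoid 33.10) and *VWF* against endothelial-type barcodes (-0.054 and 1.26), neither of them called.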

Other observations

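Among genes with at least 10 CPM in members of both organoids, those that differed most between the organoids were looked up after their values were seen. This limit leaves out *PRG2*, *CLC* and *MPO*, which differed more. Among the genes above it, those higher in organoid 33.10 included *ISG15*, *IFI27*, *MX1*, *IFI35*, *DDX58*, *HERC6* and *DDX60*, which are known to be induced by interferon. No list of such genes was fixed or tested. *ISG15*, a ubiquitin-like protein, stood at 832 CPM in organoid 32.7 and 2014 in organoid 33.10, *IFI27* at 84.3 and 483 and *MX1*, an antiviral GTPase, at 71.8 and 194 CPM. Cardiomyocyte-type barcodes differed in the same direction, with *ISG15* at 285 and 993, *IFI27* at 26.9 and 223 and *MX1* at 15.4 and 61.7 CPM. In the other direction *CXCL8* (54.7 and 20.0), *CCL2* (47.9 and 11.8), *ACTG2* (99.8 and 35.1) and *LYZ* (68.6 and 14.6 CPM) stood higher in organoid 32.7. Cardiomyocyte-type barcodes held *LYZ* at 130.5 and 18.1 and *CXCL8* at 15.1 and 0.510 CPM, and 5 members held 72.2% of the members' *LYZ* UMIs in organoid 32.7. With 1 library per organoid these differences were not tested.

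Some transcripts in the members' sums came from very few barcodes. Of 3098 *PRG2* UMIs in members of organoid 32.7, 1907 lay in 1 member and 85.8% in 5, and 5 members held 94.3% of *CLC* and 91.0% of *MPO* UMIs, all genes of granulocytes. The eosinophil list summed to 719 CPM in members of organoid 32.7 and 14.3 in those of organoid 33.10, and the neutrophil list to 171 and 16.3, next to 230.1 and 24.4 in cardiomyocyte-type and 159 and 10.1 in endothelial-type barcodes. The eosinophil list summed to 146 and 10.9 CPM in cardiomyocyte-type and 1908 and 3357 in PF4-low barcodes. In organoid 33.10, 938 *AFP* UMIs lay in 10 members, 99.3% of them in 5, and the foregut list summed to 18.4 and 114 CPM. *C1QB*, a macrophage complement gene, had 86.7% of its UMIs in members of organoid 32.7 in barcodes marked as doublets.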
